A study of Canis lupus familiaris with 22 samples.

Results

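The small heat shock proteins and the BAG co-chaperones were represented by 9 genes, CRYAB, HSPB1, HSPB2, HSPB3, HSPB6, HSPB7, HSPB8, BAG2 and BAG3, of the 15115 genes on the array that have a name. A probe set, the group of short probes that reports a transcript, was taken as a member where the platform's annotation gives it 1 of these symbols and no other, which gave 17 of the 42924 probe sets. Affymetrix canine arrays were hybridised with RNA of 18 samples of invasive urothelial carcinoma (iUC) and 4 samples of normal bladder, 1 array for each sample. The iUC samples were high grade tumors of pet dogs, biopsied by cystoscopy before any therapy, and the normal samples came from healthy dogs without tumors that were matched for age. The RNA is that of whole tissue, and the labels name no genotype, agent or time point. The deposited values are log2 values that the authors centred on the median of each probe set over all 22 arrays. A value of 0 is therefore the middle of these samples, a difference of 1 is a 2-fold difference, and no value gives an expression level or can be set against that of another gene. The 9 genes were chosen from the log2 values of iUC and normal bladder in these same samples, so their values in that comparison are given as a description, with no test.

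Small heat shock proteins bind unfolded proteins without using ATP and hold them in a state from which other chaperones can refold them. They share a conserved core, the alpha-crystallin domain, and form dimers and large oligomers. BAG proteins bind the ATPase domain of HSP70 chaperones and help decide whether a client is refolded or degraded. Several members are abundant in muscle, where they protect desmin, actin and filamin under mechanical load, and BAG3 with HSPB8 and HSP70 delivers damaged filamin to autophagy.

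The samples differed in cell type genes, in the signal of control probe sets and in the endings of their labels. Smooth muscle genes were far lower in iUC: 15 of 19 measured markers passed the test and fell, with MYL9 (-6.11), PDLIM3 (-5.85) and CNN1 (-5.83) the largest log2 differences, and the mean of the 19 lay between -0.50 and 1.07 in the iUC samples, against 3.38, 2.40, 3.59 and 3.94 in normal bladder replicates 1 to 4. Urothelium genes were higher in 11 of 18, and fibroblast genes lower in 9 and higher in 1 of 12. The 7 iUC arrays with a mean above 0.2 for the 17 Tag control probe sets, which match no dog transcript, are called high Tag arrays here, and the other 11 are called low Tag arrays. GAPDH and actin control probe sets averaged -1.21 to -0.63 on the high Tag arrays and -0.36 to 0.32 on the low Tag arrays. Normal bladder replicate 1 shares the ending of its label with the iUC samples, and replicates 2 to 4 have another ending. The correlation of normal bladder replicates 3 and 4 was 0.934, and that of the next closest pair of normal samples was 0.761.

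Of the 9 genes 8 had a lower mean in iUC than in normal bladder, and only HSPB3 had a higher one. CRYAB, HSPB2, HSPB8, BAG2 and BAG3, 5 of the 9, were 2-fold or more lower, while 9.22% of all genes were that much lower and 4.41% that much higher. For HSPB2, BAG2 and BAG3, 3 of the 9, every iUC sample lay below every normal sample, as for 4.47% of all genes, and 3.22% of all genes lay above in every iUC sample. The median log2 difference, iUC minus normal bladder, was -1.15 over the 9 genes and 0.08 over all genes. Nothing is read from these counts, because the genes were chosen with this contrast in view. In whole tissue, fewer cells of a type and less RNA in each cell cannot be told apart, and the part of the smooth muscle content in the differences was not tested.

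**Figure D1:**
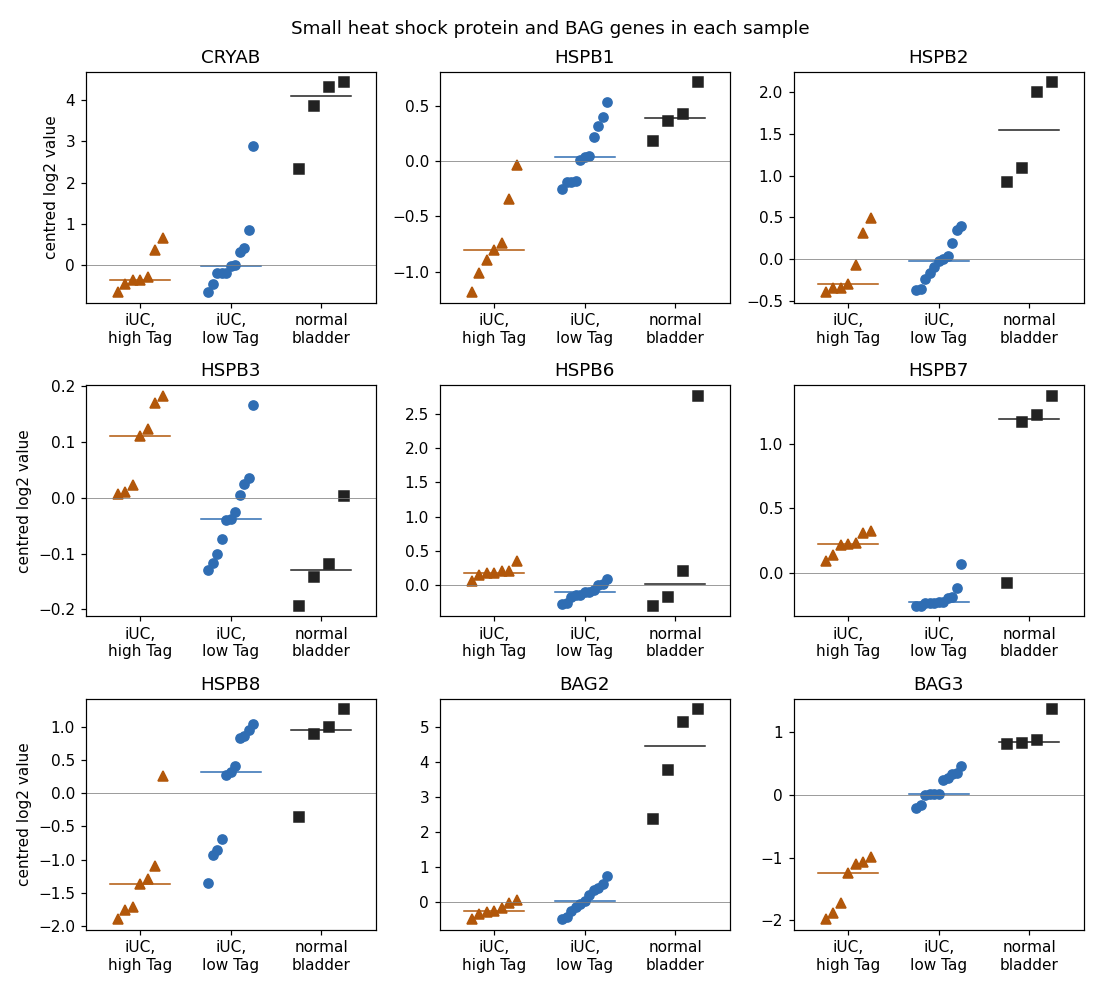
Centred log2 value (y axis, on a scale of its own for each gene) of the 9 genes in each sample, with the 7 high Tag iUC arrays, the 11 low Tag iUC arrays and the 4 normal bladder samples side by side. Points are samples, set in order of value, and lines are medians. BAG2 and CRYAB lie at 2.32 or above in all normal samples, and 1 iUC sample reaches 2.89 for CRYAB.

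CRYAB, the alphaB-crystallin of the lens that in muscle binds desmin, had the second largest difference of the family. In the iUC samples CRYAB values ran from -0.65, with a median of -0.19, to 2.89. The normal bladder samples, replicates 1 to 4, lay at 4.42, 2.32, 4.31 and 3.86. The groups overlapped through a single tumor: iUC replicate 11, at 2.89, was above normal bladder replicate 2, and the other 17 iUC samples lay at 0.86 or below. The difference in log2 means, iUC minus normal bladder, was -3.63 ± 0.45 (SE, n = 18 and 4), a 12.3-fold lower mean in iUC, and CRYAB ranked 45 of 15115 genes from the largest fall. After quantile normalization the difference was -2.20 ± 0.43. The mean of the smooth muscle genes in iUC replicate 11 was -0.23, inside the range of the other iUC samples.

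HSPB2, a small heat shock protein of muscle that binds myotonic dystrophy protein kinase, is the neighbor of CRYAB in the RefSeq gene order of the dog. HSPB2 values in the iUC samples ran from -0.40, with a median of -0.08, to 0.49. The normal samples lay at 0.93, 1.10, 2.00 and 2.12. The groups did not overlap, and normal bladder replicates 1 and 2 were lower than replicates 3 and 4. The groups differed by -1.59 ± 0.19 on the log2 scale, a 3.01-fold lower mean in iUC. Quantile normalization gave -1.04, and a block for the label ending gave -0.98, short of 2-fold. Its probe sets did not differ by the same amount. The first had a log2 difference of -2.11 without overlap and the second one of -1.06, with 16 of 18 iUC samples below the lowest normal sample.

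HSPB1, also called HSP27, is present in most tissues and binds actin filaments. Its values in the iUC samples ran from -1.19, with a median of -0.18, to 0.54, against 0.71, 0.42, 0.36 and 0.18 in the normal samples. The groups overlapped, and 14 of 18 iUC samples lay below the lowest normal sample. HSPB1 had a log2 difference of -0.66 ± 0.25, and its 2 probe sets gave -0.63 and -0.68. The difference was -1.14 with the high Tag arrays alone and -0.35 with the low Tag arrays alone.

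HSPB8, also called HSP22, is the usual partner of BAG3. Its standard deviation among tumors, 1.05, was larger than that of the other members: values in iUC ran from -1.90, with a median of -0.77, to 1.05, and 97.4% of all genes had a smaller standard deviation over the iUC samples. The normal samples lay at 1.00, -0.36, 0.90 and 1.27, so the groups overlapped, and normal bladder replicate 2 was as low as many tumors. The log2 difference was -1.15 ± 0.53. It was -1.97 with the high Tag arrays and -0.62, short of 2-fold, with the low Tag arrays. The 3 probe sets of HSPB8 differed by -0.43, -1.65 and -1.36, all with overlap. For the first, 4 of 18 iUC samples lay below the lowest normal sample, and for each of the others 10 did.

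HSPB7, the cardiovascular member that binds filamin C, gave values that depended on the probe set. One of its 3 probe sets lay between -0.58 and 0.73 in the iUC samples, with a median of -0.27, and at 2.70, 0.62, 3.70 and 3.10 in the normal samples. That probe set differed by -2.58, and 16 of 18 iUC samples were below the lowest normal sample. The other two differed by -0.23 and -0.04 and overlapped widely. Taken as their mean, HSPB7 lay between -0.26 and 0.32 in iUC, with a median of -0.15, and at 1.17, -0.08, 1.37 and 1.22 in normal bladder, a log2 difference of -0.95 ± 0.18 just short of 2-fold. Normal bladder replicate 2 stood apart from the other normal samples, and without it the difference was -1.28.

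HSPB6, also called HSP20, takes part in the relaxation of smooth muscle when phosphorylated. Its single probe set lay between -0.29 and 0.35 in the iUC samples, with a median of 0.00. In normal bladder it lay at 2.77 in replicate 1 and at -0.31, -0.17 and 0.20 in replicates 2, 3 and 4. A single normal sample was high, and the others lay within or just below the range of the tumors. The log2 difference of -0.62 ± 0.31 therefore rested on replicate 1: without it the difference was 0.10. A block for the label ending, which sets replicate 1 alone against the tumors, gave -2.77.

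HSPB3, which forms a complex with HSPB2 in muscle, varied little in any sample. Its values ran from -0.13, with a median of 0.01, to 0.18 in iUC, and were 0.00, -0.14, -0.19 and -0.12 in normal bladder. Only 4.78% of all genes had a smaller standard deviation over the iUC samples. HSPB3 had a log2 difference of 0.13 ± 0.07. Its probe sets gave -0.02 and 0.28, and the groups overlapped in both.

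**Figure D2:**
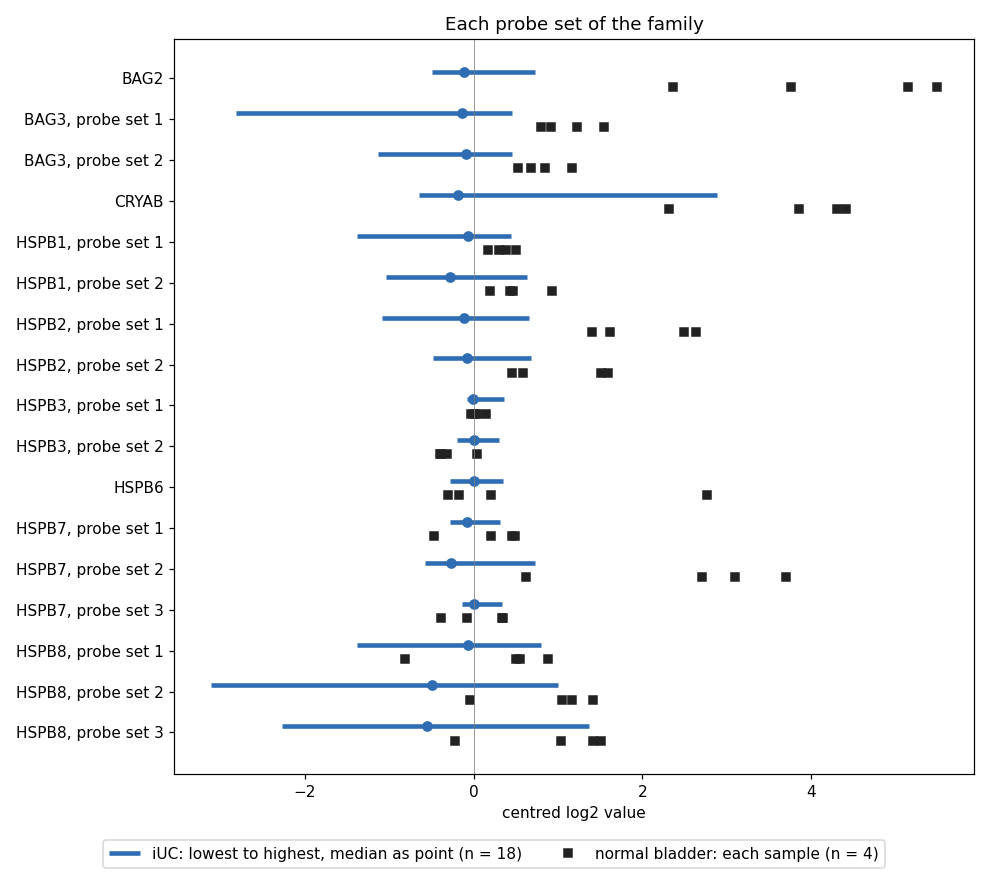
Centred log2 value (x axis) of each of the 17 probe sets (y axis, by gene). Bars run from the lowest to the highest of the 18 iUC samples with the median as a point, and squares are the 4 normal bladder samples. For HSPB7 the second probe set lies at 2.70 or above in 3 normal samples, and for HSPB6 a single normal sample, at 2.77, lies far above the tumors.

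BAG2, which inhibits the ubiquitin ligase STUB1 (CHIP) and so spares clients of HSP70 from degradation, had the largest difference of the family. BAG2 values in the iUC samples ran from -0.49, with a median of -0.11, to 0.72. The normal samples lay at 3.76, 2.37, 5.15 and 5.50. The lowest normal sample was above the highest tumor by 1.64 on the log2 scale. BAG2 differed by -4.24 ± 0.34 on the log2 scale, an 18.8-fold lower mean in iUC, and BAG2 ranked 21 of 15115 genes from the largest fall. After quantile normalization the difference was -2.62 ± 0.26. The difference was -4.41 with the high Tag arrays and -4.12 with the low Tag arrays. The gene has 1 probe set, so no second measurement of it was at hand.

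BAG3, the co-chaperone of HSPB8 in chaperone-assisted autophagy, was lower in every tumor than in any normal sample. Its values in iUC ran from -1.98, with a median of -0.09, to 0.45, against 0.82, 0.80, 0.87 and 1.36 in normal bladder. The log2 difference was -1.45 ± 0.41, and its 2 probe sets gave -1.82 and -1.07, both without overlap. The tumors were themselves parted: the high Tag arrays lay between -1.98 and -0.99 and the low Tag arrays between -0.21 and 0.45. With the high Tag arrays alone the difference was -2.39, and with the low Tag arrays alone it was -0.85, short of 2-fold and still without overlap with normal bladder. The part of the array signal in this split was not tested.

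**Figure D3:**
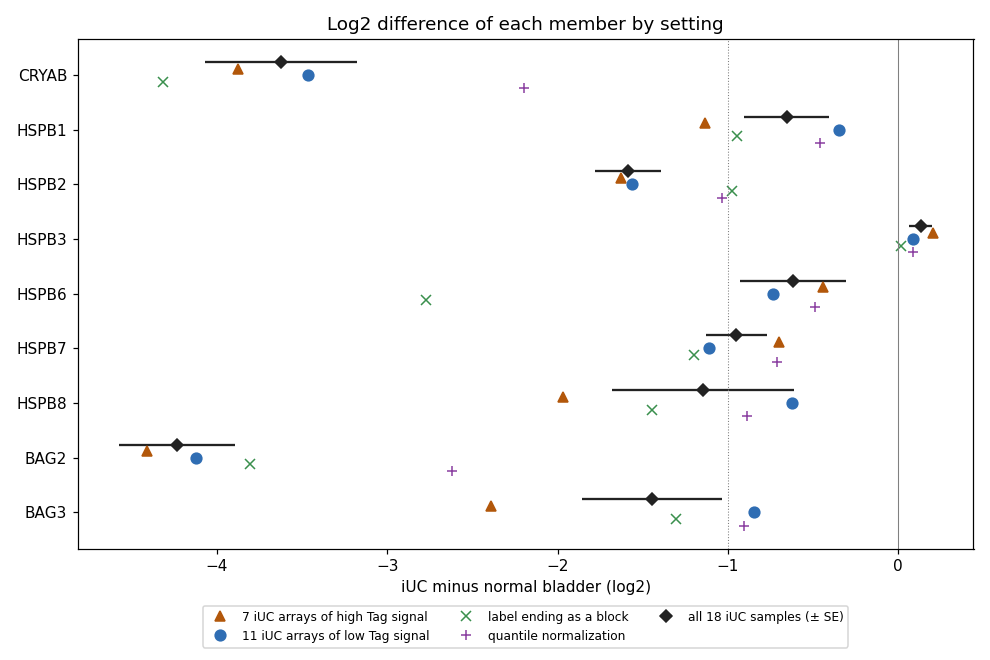
Log2 difference of each gene, iUC minus normal bladder (x axis, dotted line at -1 for 2-fold lower), with all samples (diamonds, bars ± SE), with the high Tag or low Tag iUC arrays alone, with a block for the label ending and after quantile normalization. BAG2, CRYAB and HSPB2 keep nearly the same difference with either set of iUC arrays, and HSPB6 moves to -2.77 with the block.

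Among the 9 genes, BAG3 alone was lower on every high Tag array than on every low Tag array, as were 12.8% of all genes, and HSPB7 alone was higher on every one, as were 15.9% of all genes. HSPB7 lay between 0.09 and 0.32 on the high Tag arrays and between -0.26 and 0.07 on the low Tag arrays. These are means of its probe sets. The probe set with the largest group difference parted the arrays, at 0.14 to 0.73 against -0.58 to -0.14, and the other HSPB7 probe sets overlapped. The medians of HSPB1 were -0.81 on the high Tag arrays and 0.03 on the low Tag arrays, and those of HSPB8 were -1.36 and 0.32. As means of their probe sets both genes overlapped. The first HSPB1 probe set parted the arrays, at -1.39 to -0.49 on the high Tag arrays against -0.32 to 0.44 on the low Tag arrays. The other HSPB1 probe set and every HSPB8 probe set overlapped. BAG2, HSPB2 and CRYAB had medians of -0.26, -0.30 and -0.35 on the high Tag arrays and of 0.03, -0.03 and -0.02 on the low Tag arrays, and the sets overlapped.

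The next question was whether the members followed the smooth muscle genes from tumor to tumor. These relations rest on differences among tumors and not on the difference between groups, but they use the same iUC values from which the genes were chosen, so they are not independent of that choice. Because the tumors fall into 2 sets of arrays, each relation was computed within the 11 low Tag and the 7 high Tag arrays, for the 9 genes against the mean of the 19 smooth muscle genes and for 4 pairs of known partners, 26 relations in all. P-values were adjusted over the 26 relations apart for Pearson's r and for Spearman's rho, and not over both coefficients together. None passed with Pearson's r after Benjamini-Hochberg adjustment (permutation test, exact for 7 samples, two-sided), and 5 had an unadjusted p under 0.05. With Spearman's rho 1 passed: BAG3 was lower in low Tag tumors with more smooth muscle signal (rho = -0.855, permutation p = 0.00138, adjusted p = 0.0359, and r = -0.716, permutation p = 0.0104, adjusted p = 0.134, n = 11). Without the 2 samples farthest from the median of the smooth muscle mean r was -0.744. On the high Tag arrays r for BAG3 was 0.375 (exact permutation p = 0.493, rho = 0.179, exact permutation p = 0.713, n = 7).

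BAG2 and CRYAB, the members with the largest group differences, showed little relation to smooth muscle signal on the low Tag arrays. The smooth muscle mean ran from -0.50 to 0.62 on those arrays, against 2.40 to 3.94 in normal bladder. So narrow a range over 11 samples cannot show how the members go with smooth muscle signal over the wider range, which was not tested. For BAG2 r was 0.0458 (permutation p = 0.892, rho = -0.082, permutation p = 0.819, n = 11), and for CRYAB r was -0.087 (permutation p = 0.798, rho = 0.109, permutation p = 0.753, n = 11). On the 7 high Tag arrays BAG2 had r = 0.835 (exact permutation p = 0.0127, adjusted p = 0.134, rho = 0.75, exact permutation p = 0.0663), which became 0.352 without the 2 farthest samples, so that relation rested on them. HSPB6 had r = 0.836 there (exact permutation p = 0.0498, adjusted p = 0.259, rho = 0.857, exact permutation p = 0.0238, adjusted p = 0.201), and 0.668 without the 2 farthest samples. HSPB1 had r = -0.777 there (exact permutation p = 0.0425, adjusted p = 0.259), and -0.321 without them. For HSPB2 on the low Tag arrays the same step moved r from 0.040 to 0.768. In the normal samples replicate 2, the lowest in smooth muscle signal, was also the lowest in CRYAB, BAG2, HSPB6, HSPB7 and HSPB8, though not in HSPB1, HSPB2 or HSPB3. For BAG3 it was the lowest in the mean of the probe sets (0.80, against 0.82 in replicate 1) but in neither probe set. How many of all genes were lowest in replicate 2 was not counted, so nothing is read from this.

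**Figure D4:**
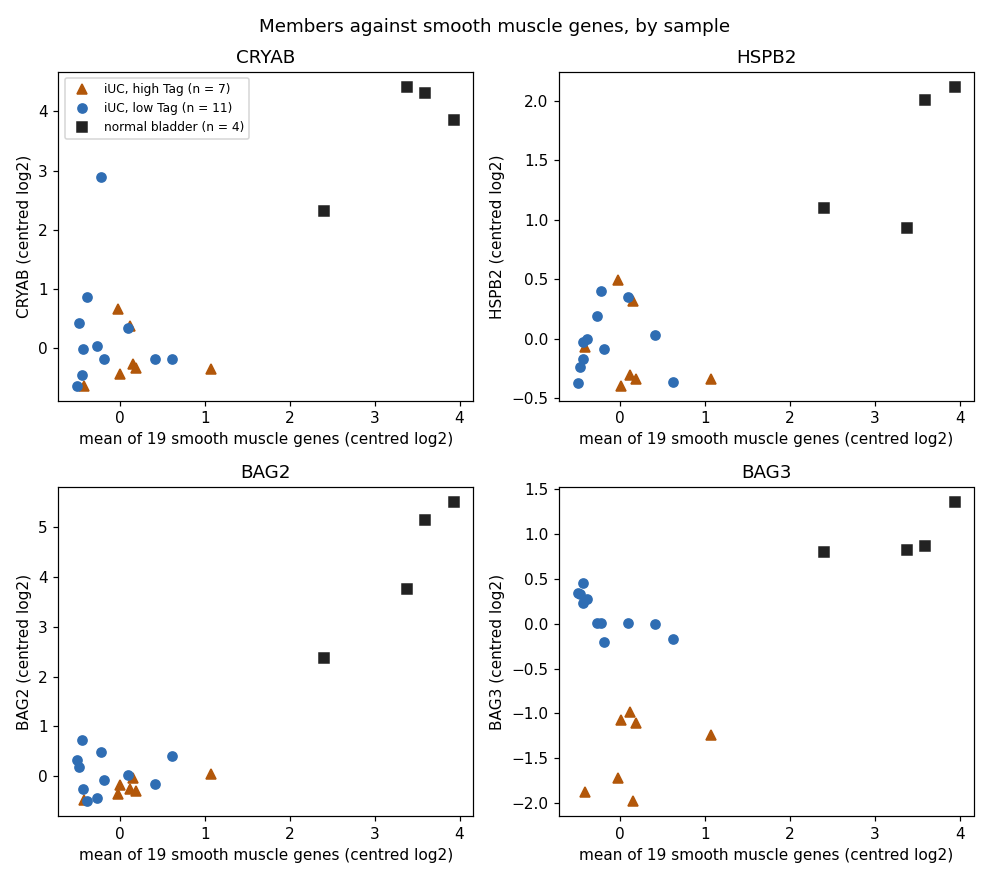
CRYAB, HSPB2, BAG2 and BAG3 (y axes) plotted over the smooth muscle mean of each sample (x axis, 19 genes), all in centred log2 values. Triangles are high Tag iUC arrays, circles low Tag iUC arrays and squares normal bladder. All normal samples are at the right of each panel, from 2.40 upward, and the tumor with CRYAB at 2.89 lies at a smooth muscle mean of -0.23.

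Of the partner pairs, the neighbors HSPB2 and CRYAB had r = 0.653 on the low Tag arrays (permutation p = 0.0154, adjusted p = 0.134, rho = 0.664, permutation p = 0.0309, adjusted p = 0.201, n = 11). On the high Tag arrays r was 0.484 (exact permutation p = 0.243, rho = 0.536, exact permutation p = 0.236, n = 7). Both values are positive, and neither passed the threshold after adjustment. For BAG3 and HSPB8, which act as a complex, r was -0.467 on the low Tag arrays (permutation p = 0.145, rho = -0.582, permutation p = 0.0665, n = 11). On the high Tag arrays it was 0.644 (exact permutation p = 0.0696, rho = 0.857, exact permutation p = 0.0238, adjusted p = 0.201, n = 7). HSPB2 with HSPB3 and BAG2 with STUB1 gave r between -0.491 and 0.114, with permutation p of 0.264 or above (exact for n = 7).

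The genes most like each member were sought by Pearson's r over the 11 low Tag arrays, as a description of arrays that share a platform and its background. HSPB3, HSPB6 and HSPB7 correlated with each other at 0.77 (HSPB3 and HSPB6), 0.82 (HSPB3 and HSPB7) and 0.72 (HSPB6 and HSPB7). On the 7 high Tag arrays the same pairs had r of 0.28, 0.12 and -0.04. Their nearest genes were ARHGAP33, IL17A and ERCC2 for HSPB3, GHRH, SSC5D and BCR for HSPB6, and MMP13, PLAC8A and ALB for HSPB7, with r from 0.95 to 0.98. On the 7 high Tag arrays the r of these pairs ran from 0.002 (HSPB7 and ALB) to 0.81 (HSPB6 and GHRH). GHRH is a hormone of the hypothalamus and ALB the albumin of the liver. The standard deviations of these 3 members over the low Tag arrays were 0.08, 0.11 and 0.09, against a median of 0.21 over all genes. CRYAB was nearest to SLC5A8, URAD and UNC119 (r of 0.92 or 0.93), HSPB2 to RBM41, PARP8 and CCL2 (0.85 to 0.91), and BAG3 to IKZF2, MCU and ESRP1 (0.86 to 0.92), ESRP1 being a splicing factor of epithelial cells. On the 7 high Tag arrays the r of these last 9 pairs ran from -0.43 to 0.36. BAG2, HSPB1 and HSPB8 had nearest genes at 0.81 to 0.86, and on the high Tag arrays the r of these pairs ran from -0.62 to 0.42. Nearest genes were picked as the highest r among all genes over 11 arrays, so high values follow in part from that choice.

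The wider chaperone system was counted in 7 lists with 83 measured genes, each gene tested with limma over all 15115 genes and called where it differed at least 2-fold with an adjusted p no greater than 0.05. In iUC 8 of the 83 fell and 1 rose, with 34 at an unadjusted p under 0.05, while 8.64% of all genes were called lower and 3.68% higher. The median log2 difference was -0.27, against 0.08 over all genes. Scaling every array to its 75th percentile moved the median of all genes to 0.20 and gave 8 lower and 4 higher (7.15% and 5.34% of all genes), and quantile normalization gave 5 lower and 0 higher (2.85% and 1.95%, 27 chaperone genes at an unadjusted p under 0.05, limma).

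Of 12 HSP70 chaperones HSPA2 fell and HSPA12B rose. HSPA2, an HSP70 best known from the testis, had values from -1.47, with a median of -0.41, to 0.62 in iUC, against 1.20, 2.17, 4.10 and 4.52 in normal bladder. The groups did not overlap, and normal bladder replicates 3 and 4 were the highest. HSPA2 differed by -3.45 ± 0.47 (adjusted p = 1.2e-05), a 10.9-fold fall. HSPA12B, a distant HSP70 of endothelial cells, rose by 1.11 ± 0.39 (adjusted p = 0.0313 over all genes with limma), and it was not called without normal bladder replicate 2, 3 or 4, at adjusted p of 0.0925, 0.0869 and 0.0709 (limma). Its difference was 2.02 with the high Tag arrays alone and 0.53 with the low Tag arrays alone.

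Of 20 HSP40 co-chaperones, which hand clients to HSP70, 4 fell and none rose. DNAJB4 had values from -1.73, with a median of -0.24, to 0.96 in iUC, against 1.44, 1.34, 2.75 and 3.25 in normal bladder, without overlap. It differed by -2.47 ± 0.43 (adjusted p = 0.000176, limma). DNAJC8, which is associated with the spliceosome, fell by 1.73 on the log2 scale and did not overlap. DNAJA4 fell by 1.34 and DNAJB5 by 1.22, with overlap, and DNAJB5 was not called without normal bladder replicate 4 (-0.80). Neither was called after quantile normalization, DNAJA4 at -0.91 (adjusted p = 0.0957, limma) and DNAJB5 at -0.87, short of 2-fold.

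Of 16 genes of chaperone-assisted selective autophagy and its signaling, 3 fell and none rose. FLNA and FLNC, the filamins that BAG3 and HSPB8 hand to autophagy when damaged, fell by 1.89 and 1.83 on the log2 scale (adjusted p = 0.000815 and 0.000136, limma). FLNC had values from -0.42 to 0.57 in iUC, with a median of -0.12, and 2.14, -0.12, 2.52 and 2.70 in normal bladder. Normal bladder replicate 2 lay at the median of the tumors, and the other normal samples lay above every tumor. YAP1, the Hippo effector, fell by 1.45 (adjusted p = 0.0039, limma) and was not called after quantile normalization, at -0.94 (adjusted p = 0.0543, limma). SQSTM1, an autophagy receptor, and SYNPO2, a partner of BAG3 in muscle, did not pass, at 0.94 ± 0.42 and -0.81 ± 0.38.

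None of the 15 HSP90 genes, 9 chaperonins, 4 heat shock factors or 7 other small heat shock and BAG genes was called by limma, with 4, 1, 3 and 2 of them at an unadjusted p under 0.05. All 9 chaperonin genes and 13 of the 15 HSP90 genes had a difference below 0, at medians of -0.34 and -0.23, against 0.08 over all genes. These medians were -0.99 and -0.86 with the high Tag arrays alone, and 0.07 and 0.02 with the low Tag arrays alone. Of the other BAG genes, BAG1 differed by 0.69 ± 0.61, BAG4 by -0.20 ± 0.45, BAG5 by -0.31 ± 0.43 and BAG6 by 0.17 ± 0.18. The genes named here that were not called, SQSTM1 and SYNPO2 included, were chosen after their values were seen. HSF1, the factor that turns on heat shock genes, and HSF2 differed by 0.94 ± 0.20 and -0.71 ± 0.13 (adjusted p = 0.00144 and 0.000291, limma). Both passed the threshold of adjusted p and did not reach 2-fold. STUB1, the ligase that BAG2 inhibits, differed by -0.23 ± 0.20, and HSPA8, the constitutive HSP70, by -0.25 ± 0.29.

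These counts depended on the set of iUC arrays. With the high Tag arrays alone 32 of the 83 genes were called lower and 4 higher, while 17.4% of all genes were called lower and 7.16% higher. With the low Tag arrays alone 9 were lower and 5 higher, against 5.96% and 5.23% of all genes. The mean of the HSP90 list lay between -1.08 and -0.47 on the high Tag arrays, and the chaperonin list had a median difference from normal bladder of -0.99 with those arrays and 0.07 with the low Tag arrays. Of the 8 genes that fell, 8 were called lower with the low Tag arrays and 7 with the high Tag arrays, DNAJB5 being the exception. With a block for the label ending, which leaves 1 normal sample against the tumors, 1 of the 8, FLNC, was called (limma, 8 of the 83 genes at an unadjusted p under 0.05).

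**Figure D5:**
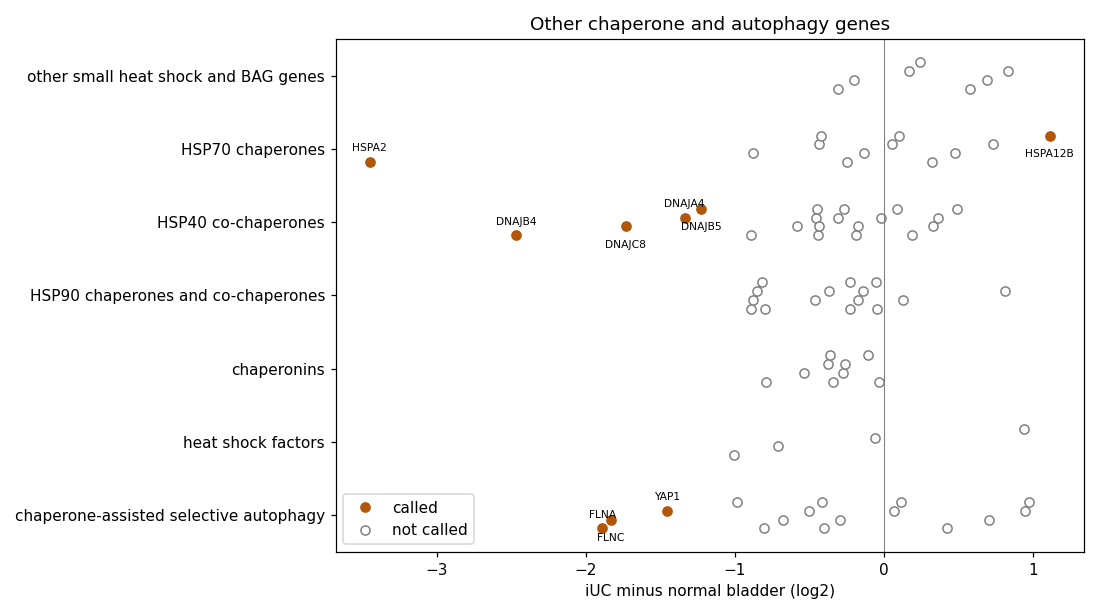
Log2 difference, iUC minus normal bladder (x axis), of each measured gene of 7 lists of chaperone and autophagy genes (y axis; a small offset parts the points). Filled points are genes called by limma and are named, and open points are not called. HSPA2 lies at -3.45 and DNAJB4 at -2.47, and no HSP90, chaperonin or heat shock factor gene is filled.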

How the data were processed

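Per the study's methods, RNA of 18 iUC and 4 normal bladder samples was hybridised to Affymetrix canine arrays and processed in GeneSpring GX. The authors deposited log2 values of 43035 probe sets, centred on the median of each probe set over the 22 arrays (the largest absolute median of a probe set was 5e-07). The steps before centring (probe summary, normalization of the arrays) are among what was not given in the sources used here. No level remains after centring, so the study's filter on low values was not applied. After 111 control probe sets were set aside, the value of a gene was the mean of the probe sets that name it alone, from the platform's annotation. The Entrez number of 8 of the 9 members was found in the RefSeq table and 0 symbols changed.

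The comparison of groups used lmFit and eBayes of limma 3.58.1 (R 4.3.3) without covariates, and p-values were adjusted by Benjamini-Hochberg over 15115 genes. The labels call the samples biological replicates, and the number of arrays limits the precision. Correlations used 100000 permutations, or all 5040 for 7 samples, in Python 3.11 with scipy 1.17.1. The code was tested on simulated data. The members and lists were chosen with earlier results of these data known, and the lists come from general knowledge. Named genes are the 9 members, called genes of the lists (up to 6 for a chaperone list and 3 for a cell type list) by size of difference, and the 3 genes nearest to each member. Cell type lists also covered striated muscle (3 of 18 lower), endothelium (3 of 8 lower), immune cells (1 of 8 lower) and nerve (0 of 6 called by limma, 1 at an unadjusted p under 0.05). Alternatives were other normalizations, the probe set of largest variance, array weights and an ordinary unpaired t-test. Others were a filter on variance, leaving out each normal sample, blocks, and either set of iUC arrays. Sequences were not analysed here.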

Additional observations from a re-analysis of the deposited data

Results flagged for a closer look

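In each of 48 sets of normal bladder values, for the members, their probe sets and the named genes, the distance of the most extreme sample from its nearest neighbor was set against the range of the group, and 5 exceeded Dixon's critical value for 4 samples. Chance marks about 1 in 20 such groups. HSPB6 lay at 2.77 in normal bladder replicate 1, and the other normal samples lay between -0.31 and 0.20. HSPB7 lay at -0.084 in normal bladder replicate 2, and the other normal samples at 1.17 or above. BAG3 lay at 1.36 in normal bladder replicate 4, above 0.80 to 0.87 in the others. Normal bladder replicate 2 was also far below the others for the smooth muscle gene CNN1 (3.93) and the microfibril gene MFAP5 (2.84).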

How the results depend on the processing

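Each alternative run on the members kept the mean of CRYAB, HSPB1, HSPB2, HSPB7, HSPB8, BAG2 and BAG3 lower in iUC, and HSPB6 turned to 0.10 without normal bladder replicate 1. Quantile normalization left 3 members, BAG2, CRYAB and HSPB2, 2-fold or more lower in place of 5 (BAG3 at -0.91, HSPB8 at -0.89), and the probe set of largest variance moved the members' median difference to -1.82 from -1.15. Leaving out single normal samples gave 4 to 6 such members and medians from -1.5 to -0.96. It gave 7 to 9 chaperone genes called lower and 0 to 4 higher, against 8 and 1. Of all genes, 6.4% to 9.89% were then called lower and 1.97% to 4.74% higher, against 8.64% and 3.68%. The chaperone genes called lower and higher were 5 and 0 after quantile normalization (27 at an unadjusted p under 0.05, limma), against 2.85% and 1.95% of all genes. DNAJA4, DNAJB5, YAP1 and HSPA12B were lost there. The counts were 13 and 4 with the probe set of largest variance (13.5% and 6.19% of all genes), and 32 and 4 with the high Tag arrays alone (17.4% and 7.16%). They were 8 and 4 after scaling to the 75th percentile (7.15% and 5.34%). With normal bladder replicates 3 and 4 averaged they were 7 and 0 (6.48% and 2.06%, 29 chaperone genes unadjusted). They were 9 and 5 with the low Tag arrays (5.96% and 5.23%) and 9 and 5 with array weights (8.89% and 7.05%). A block for the label ending leaves 1 normal sample to set against the tumors, and the members' median difference with it was -1.30. An ordinary unpaired t-test in place of the moderated one called 9 and 1 unadjusted, and 8 and 1 after Benjamini-Hochberg. Same-numbered iUC and normal samples share only a number: their deviations from the group means correlated between -0.17 and 0.13. With the replicate block only the iUC samples that share a number with a normal sample enter the difference. That fit called 0 chaperone genes lower and 0 higher (limma, 31 at an unadjusted p under 0.05), against 2.31% and 1.42% of all genes. In the same fit 5 members were 2-fold or more lower, at a median of -1.33. The count of 0 relations between members and smooth muscle genes passing with Pearson's r was the same under each alternative, one of which, without iUC replicate 11, was chosen after seeing the data. That count does not cover the BAG3 relation, which passed only with Spearman's rho. The causes of these shifts were not tested. Having 4 normal samples, 2 of them highly alike, limits every comparison.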
